A study of Mus musculus with 2 samples.

Results

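The 10 genes described here encode receptors of the platelet surface and proteins that platelets store and release. They are Gp1ba, Gp1bb, Gp9, Gp5, Itga2b, Gp6, Treml1, Pf4, Ppbp and Vwf. They were taken by symbol from the GENCODE M21 annotation of the mouse genome build mm10, by a rule that uses no peak value. They are 10 of the 21938 protein-coding genes of the annotation, and all 10 symbols were found.

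The data are chromatin immunoprecipitation sequencing (ChIP-seq) of H3K4me3, trimethylation of histone H3 at lysine 4, in the immortalized mouse line MEL. The line comes from an erythroleukaemia, a leukaemia of the red cell lineage, and the labels describe it as an analog of the human line K562. There is 1 group with 2 replicate libraries, and the labels give no treatment, genetic change, age or sex. Both libraries name the same cell sample in the labels, so the spread between them may be technical, and with 1 cell line and 1 group no comparison between conditions can be made.

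Platelets are fragments shed by megakaryocytes, and megakaryocytes and red cells arise from a common progenitor. On platelets the glycoprotein Ib-IX-V complex catches von Willebrand factor at a damaged vessel wall, GPVI binds collagen, and the integrin of alpha-IIb and beta-3 binds fibrinogen and links platelets to each other. Alpha granules then release chemokines and adhesive proteins. H3K4me3 is found chiefly at transcription start sites (TSSs), at active genes and at many CpG-rich promoters. A peak is a region where the immunoprecipitated reads were called as enriched by the authors. It shows the mark and is not a measure of RNA.

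A gene was counted as marked when a peak overlapped, by at least 1 bp, the window of 1000 bp on each side of any of its annotated transcript starts. The authors' replicated list, drawn from the lists of both replicates and of the pooled reads, holds 37387 peaks and was used throughout unless another list is named. The replicate 1 list holds 51790 peaks and the replicate 2 list 41508. The signal value printed for a peak is the authors' own score for that peak, and it was ranked only within its list. The median signal value was 6.79 over the replicated list, 5.23 over the replicate 1 list and 5.99 over the replicate 2 list. Read counts are not part of these lists, so the depth behind a peak is unknown, and a gene without a peak is one where none was called. Of 8 erythroid marker genes 7 were marked in the replicated list, among them Klf1, and Slc4a1, which encodes the band 3 anion exchanger of the red cell membrane, was not. The share over all protein-coding genes was 50.3%.

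Of the 10 genes 5 were marked, namely Gp1ba, Gp5, Itga2b, Pf4 and Vwf. Across all protein-coding genes 50.3% were marked, so the share of platelet genes was near the background. The same 5 genes were marked in the replicate 2 list, where the background was 50.9%. The replicate 1 list, with a background of 50.4%, added Treml1 and so gave 6 of 10. A peak lay within the gene body of 4 of the 10 genes, Gp5, Itga2b, Pf4 and Vwf, against 55.1% of all protein-coding genes. None of the 10 had a gene body peak without a TSS peak, a pattern held by 5.42% of protein-coding genes. Gp1ba was the only marked gene with no replicated peak reaching any of its own starts, and its closest peak lay 268 bp away. Just outside the window, a further weak Gp1ba peak lay 1331 bp from its start. Among the unmarked genes the closest peaks lay 1670 bp from the start of Gp9 and 1840 bp from that of Ppbp.

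**Figure D1:**
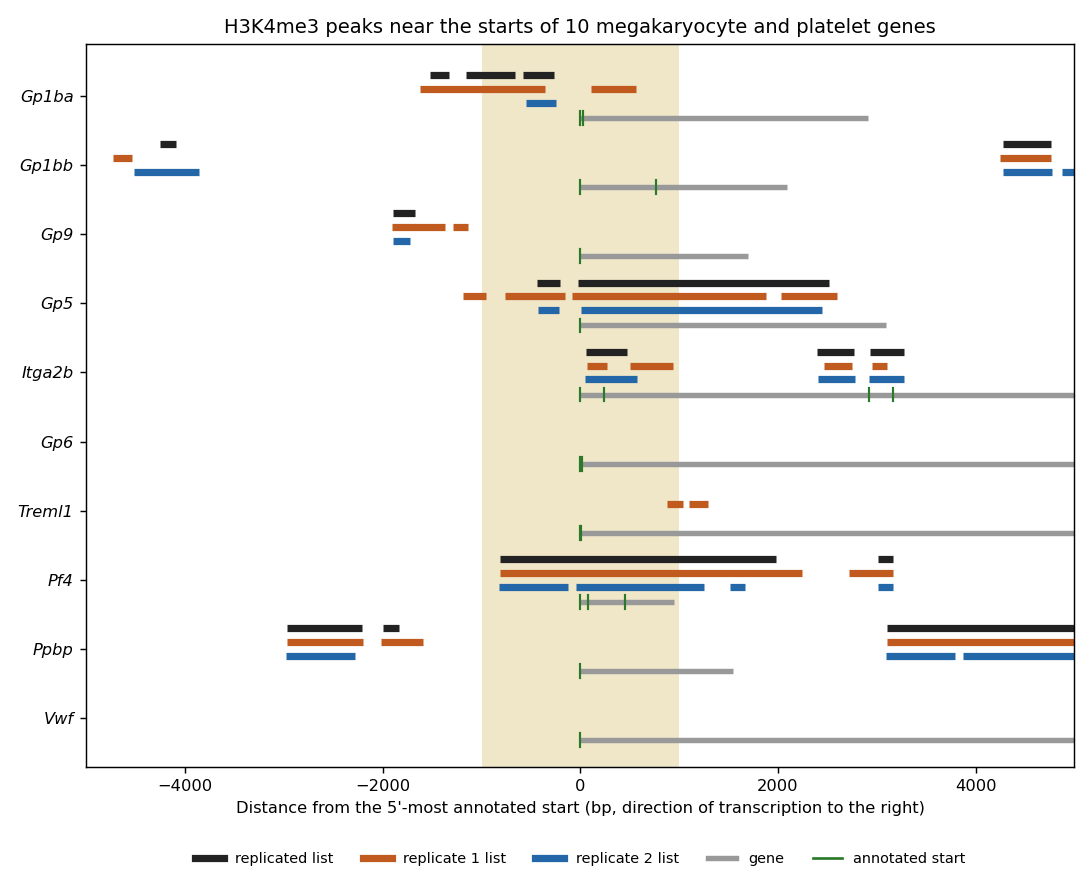
H3K4me3 peaks of 3 lists (replicated, replicate 1, replicate 2, as bars) within 5000 bp of the 5'-most annotated start of each of the 10 genes, with distance in bp on the horizontal axis and transcription running to the right. Grey bars are genes, green ticks are annotated starts, and the shaded band is the window of 1000 bp around the 5'-most start. Bars that cover the start are seen at Gp5 and Pf4 in the replicated list, while Gp6 and Vwf have no bar in any list. Vwf was counted as marked through an internal start beyond this range.

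The 4 genes of the glycoprotein Ib-IX-V complex differed from each other. Gp5 carried a broad peak over its start and most of its length, Gp1ba had only weak peaks upstream, and Gp1bb and Gp9 had none in their windows in any of the lists.

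Gp5 encodes glycoprotein V, the subunit of the complex that thrombin cleaves. It lies on the minus strand of chromosome 16 at chr16:30307685-30310779 (mm10) and has 1 annotated start. Its main peak, chr16:30308259-30310801, was 2543 bp wide with a signal value of 11.2, and its summit lay 343 bp downstream of the start, in the intron. That peak covered 81.5% of the gene. A second peak, chr16:30310984-30311213, lay upstream with a signal value of 2.93. The strongest TSS peak of Gp5 had a signal value of 14.0 in the replicate 1 list and 13.6 in the replicate 2 list. Among marked genes 71.0% had a stronger TSS peak in the replicated list, 33.9% in replicate 1 and 63.0% in replicate 2, so the replicates placed Gp5 on different sides of the middle of their own lists. Its nearest marked protein-coding neighbours were Atp13a3, 95196 bp away, and Hes1, 246395 bp away on the other side. The 250 bases before its RefSeq start, chr16:30310782-30311031, are shown because they reach from the main peak into the upstream one and hold both of the motifs described further on. They are read on the minus strand of GRCm38.p6, the same build as mm10, with GATAA and GGAAG in capitals on either strand (TTATC and CTTCC when reversed).
Gp5 promoter: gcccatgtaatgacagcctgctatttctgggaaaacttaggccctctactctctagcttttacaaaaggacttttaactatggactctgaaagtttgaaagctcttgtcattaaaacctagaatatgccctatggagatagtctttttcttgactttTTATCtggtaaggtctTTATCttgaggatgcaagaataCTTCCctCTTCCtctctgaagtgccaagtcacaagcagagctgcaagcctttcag

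Gp1ba encodes glycoprotein Ib alpha, the chain of the complex that binds von Willebrand factor. The gene is on the plus strand at chr11:70639122-70642036 with 2 annotated starts. A pair of weak peaks lay upstream of its start, chr11:70637962-70638460 with a signal value of 2.78 and chr11:70638542-70638854 with 2.71, and none lay in the gene. The rank of the stronger one was 11010 of 11037 marked genes. Its strongest TSS peak had a signal value of 3.09 in replicate 1 and 2.59 in replicate 2, and nearly all marked genes ranked above it in every list, 99.7% in the replicated list, 99.5% in replicate 1 and 99.6% in replicate 2. Replicate 1 alone also had a peak inside the gene, at chr11:70639225-70639683, with a signal value of 2.51. The nearest marked neighbours were Rnf167, 8113 bp away with a signal value of 7.50, and Mink1, 76241 bp away.

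Gp1bb encodes glycoprotein Ib beta, which is disulfide-linked to the alpha chain. At its locus, chr16:18620317-18622403 on the minus strand, no peak was called in the windows or the body in any list. The nearest peak was 3517 bp from the nearer of its 2 starts. Upstream lay the strong peak chr16:18629019-18629906, signal value 21.5, which began 6616 bp from the 5'-most start of Gp1bb and overlapped no start of it. The nearest marked protein-coding genes were Gm49601, 4024 bp away with a signal value of 3.75, and Rtl10, 123502 bp away.

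Gp9 encodes glycoprotein IX, the small subunit needed for the complex to reach the cell surface. Annotated on the plus strand at chr6:87778072-87779768, it had 1 start and no peak in its window or body. The nearest peak, chr6:87776172-87776402, lay 1670 bp upstream with a signal value of 3.83. RefSeq also places predicted Gp9 transcripts at starts 87776131 and 87776760, and with RefSeq starts Gp9 was counted as marked by that same peak. The nearest marked protein-coding genes were Rab43, 34092 bp away with a signal value of 23.2, and Aplf, 105879 bp away.

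Among the other receptors Itga2b was marked in all lists, Treml1 in replicate 1 only and Gp6 in none. Itga2b encodes integrin alpha-IIb (CD41), a surface marker of megakaryocytes that also appears on early blood progenitors. It lies on the minus strand at chr11:102453297-102470122 and has 10 annotated starts, 1 of which, 102469883, belongs to a protein-coding transcript. At that start the peak was weak. It spanned chr11:102469648-102470062 with a signal value of 3.81, and the peaks covering that start had signal values of 3.21 in replicate 1 and 3.93 in replicate 2. Replicate 1 also had a peak 260 bp from that start, chr11:102469182-102469623, with a signal value of 3.36.

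The stronger Itga2b peaks lay inside the gene, near starts annotated as processed transcripts. The peak chr11:102467353-102467727 had a signal value of 10.9, with its summit in an intron 2621 bp downstream of the 5'-most start. Its signal value was 6.81 in replicate 1 and 13 in replicate 2. The strongest, chr11:102455629-102456141, had a signal value of 11.6. Its summit was in an exon, 14184 bp downstream. It reached 6.11 in replicate 1 and 13.9 in replicate 2, so each of these stronger internal peaks exceeded the one at the coding start in both replicates. Beside it lay chr11:102456225-102456538, with a signal value of 7.60 in the replicated list, 4.39 in replicate 1 and 9.39 in replicate 2. A weaker peak, chr11:102466849-102467195, had a signal value of 3.50. In all, 5 peaks covered 11.7% of the gene.

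By its strongest peak Itga2b ranked 7495 of 11037, with 67.9% of marked genes above it. The share above was 90.3% in replicate 1 and 61.1% in replicate 2, and counted by the coding start alone the signal value was 3.81. The nearest marked neighbours were Fam171a2, 22440 bp away with a signal value of 20.3, and Gpatch8, 86270 bp away. The coding promoter and the bases around the summit of an internal peak are shown side by side because the weaker mark lay at the first and the stronger at the second. Both are on the minus strand of GRCm38.p6, with GATAA and GGAAG in capitals as before. The promoter is chr11:102469884-102470133 and the window of 100 bases on each side of the summit is chr11:102467401-102467601.
Itga2b promoter: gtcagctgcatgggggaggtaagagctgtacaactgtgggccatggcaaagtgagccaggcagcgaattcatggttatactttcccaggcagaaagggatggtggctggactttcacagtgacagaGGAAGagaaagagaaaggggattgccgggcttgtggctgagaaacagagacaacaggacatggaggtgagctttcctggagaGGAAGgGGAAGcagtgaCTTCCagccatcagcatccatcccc
Itga2b internal summit: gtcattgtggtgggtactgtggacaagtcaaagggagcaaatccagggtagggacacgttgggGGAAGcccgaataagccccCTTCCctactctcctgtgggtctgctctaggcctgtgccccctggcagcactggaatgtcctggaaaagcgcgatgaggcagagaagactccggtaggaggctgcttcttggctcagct

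**Figure D2:**
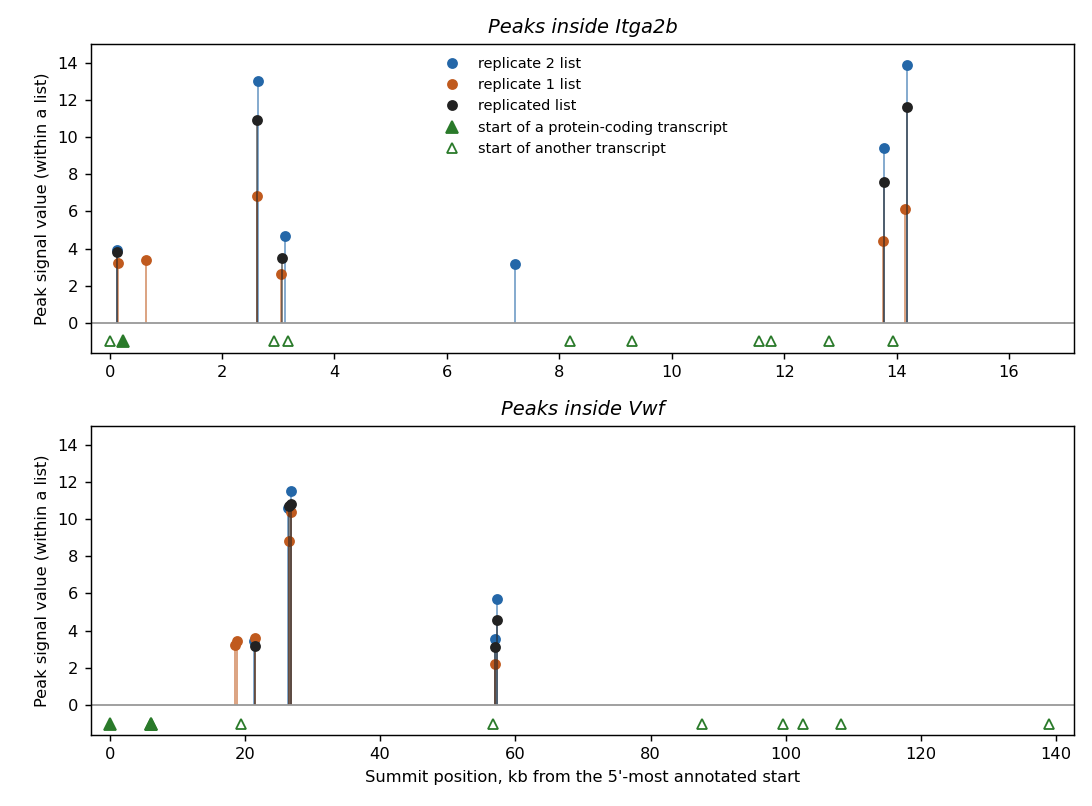
Signal value of each H3K4me3 peak inside Itga2b and Vwf (vertical axis, the authors' score, read within a list) against the position of its summit in kb from the 5'-most annotated start, for the replicated, replicate 1 and replicate 2 lists. Triangles under the axis mark annotated starts, filled for protein-coding transcripts. In Itga2b the tallest points lie near internal starts, and in Vwf the tallest pair lies at no annotated start.

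Gp6 encodes glycoprotein VI, the main collagen receptor of platelets. At chr7:4363965-4397744, on the minus strand, no list held a peak in its windows or its body. The nearest replicated peak was 46954 bp away, farther than for any of the other unmarked genes among the 10. Its nearest marked neighbours were Rdh13, 47905 bp away, and Leng9, 247370 bp away.

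Treml1 encodes TLT-1, a receptor held in platelet alpha granules and moved to the surface on activation. The gene spans chr17:48359916-48367176 on the plus strand. In the replicated list the nearest peak was 17943 bp from its start. Replicate 1 had a peak 879 bp into the gene, chr17:48360795-48360954, with a signal value of 3.39 and a −log10 q of 4.02, and a second one, chr17:48361018-48361210, with a signal value of 2.37 and a −log10 q of 0.772. Replicate 2 had none there, so the mark at Treml1 rested on 1 library. In the replicate 1 list 98.9% of marked genes ranked above it. Its nearest marked neighbours in the replicated list were Nfya, 49990 bp away, and Treml2, 60418 bp away.

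Of the secreted proteins Pf4 and Vwf were marked and Ppbp was not. Pf4 encodes platelet factor 4 (CXCL4), an alpha granule chemokine, and lies on the plus strand at chr5:90772435-90773383. Its peak, chr5:90771618-90774414, was 2797 bp wide with a signal value of 13.8 and covered the whole gene. A peak over the whole gene was found for 60 of the 879 marked protein-coding genes of up to 4000 bp, or 6.83%.

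The replicates differed in how strongly Pf4 was marked. In replicate 1 its peak had a signal value of 21.1 and ranked 347, with 3.13% of marked genes above it. In replicate 2 the region was split into separate peaks, the strongest of which, chr5:90772387-90773688, had a signal value of 10.4 and ranked 9305, with 83.2% of marked genes above it. The replicated list placed it between them, at rank 5477 with 49.6% above, but ranked by −log10 p in place of the signal value 83.9% lay above it.

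Ppbp encodes pro-platelet basic protein, the precursor of the chemokine CXCL7. It lies next to Pf4 on the same strand, at chr5:90768518-90770063, and no list held a peak in its window or body. Weak peaks lay upstream, at chr5:90766524-90766678, 1840 bp from its start with a signal value of 3.37, and at chr5:90765550-90766308 with a signal value of 5.0. The latter was called in both replicates, with signal values of 5.18 in replicate 1 and 5.29 in replicate 2. The Pf4 peak began 3100 bp downstream of the Ppbp start. The promoters of this adjacent pair are shown because the marked and the unmarked gene lie 3917 bp apart from start to start. Both are on the plus strand of GRCm38.p6, chr5:90772185-90772434 for Pf4 and chr5:90768268-90768517 for Ppbp, with GATAA and GGAAG in capitals as before.
Pf4 promoter: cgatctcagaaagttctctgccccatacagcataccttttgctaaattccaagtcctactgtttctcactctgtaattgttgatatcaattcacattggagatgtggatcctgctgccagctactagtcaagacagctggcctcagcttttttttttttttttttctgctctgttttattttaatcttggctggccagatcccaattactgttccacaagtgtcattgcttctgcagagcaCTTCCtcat
Ppbp promoter: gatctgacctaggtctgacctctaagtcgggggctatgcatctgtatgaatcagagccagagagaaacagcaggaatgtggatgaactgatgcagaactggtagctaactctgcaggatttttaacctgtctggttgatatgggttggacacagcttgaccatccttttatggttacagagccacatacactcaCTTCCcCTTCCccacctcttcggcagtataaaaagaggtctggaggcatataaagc

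Vwf encodes von Willebrand factor, an adhesive protein made by megakaryocytes and by endothelial cells. It lies on the plus strand at chr6:125546774-125686679 and has 10 annotated starts. Its protein-coding transcripts begin at 125546774, 125552948 and 125552963, and none of these starts was marked. The nearest peak was 21416 bp from the first and 15242 bp from the second. In the replicated list Vwf was counted as marked only through the start of a processed transcript at 125603550. There the peaks chr6:125603451-125603834 and chr6:125603988-125604514 had signal values of 3.12 and 4.60. In replicate 2 the peaks at that start had signal values of 3.56 and 5.70. In replicate 1 the only peak there, chr6:125603555-125603827, had a signal value of 2.22 and a −log10 q of 0.279. Replicate 1 had no peak at the place of the stronger one. Across all protein-coding genes 3.42% were marked at an internal start and not at the 5'-most one.

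The strongest peaks in Vwf lay in an intron, at no annotated start. The peak chr6:125572524-125573356 had a signal value of 10.7, with 8.82 in replicate 1 and 10.6 in replicate 2. The peak chr6:125573471-125573917 had a signal value of 10.8, with 10.4 in replicate 1 and 11.5 in replicate 2, so both were found in each replicate. The TSS peak was weaker in every list. In the replicated list 97.6% of marked genes ranked above Vwf. In replicate 2 the share was 95.6%, from a peak with a signal value of 5.70. In replicate 1 it was 98.8%, from a peak of 3.45 at another processed transcript, whose start is 125566251. The 5 peaks in the gene covered 1.72% of it. The nearest marked neighbours were Cd9, 51983 bp away with a signal value of 11.3, and Ndufa9, 1302362 bp away.

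Of 7 endothelial marker genes, listed because endothelial cells also make von Willebrand factor, Pecam1 was the 1 marked gene, with a signal value of 3.91. The share over all protein-coding genes was 50.3%. All of the 7 but Kdr and Cldn5 are of the low CpG promoter class defined below, of which 16.6% were marked. Cdh5, Kdr, Tek, Tie1, Emcn and Cldn5 had no TSS peak in the replicated list, and Tek had one in replicate 1 only.

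**Figure D3:**
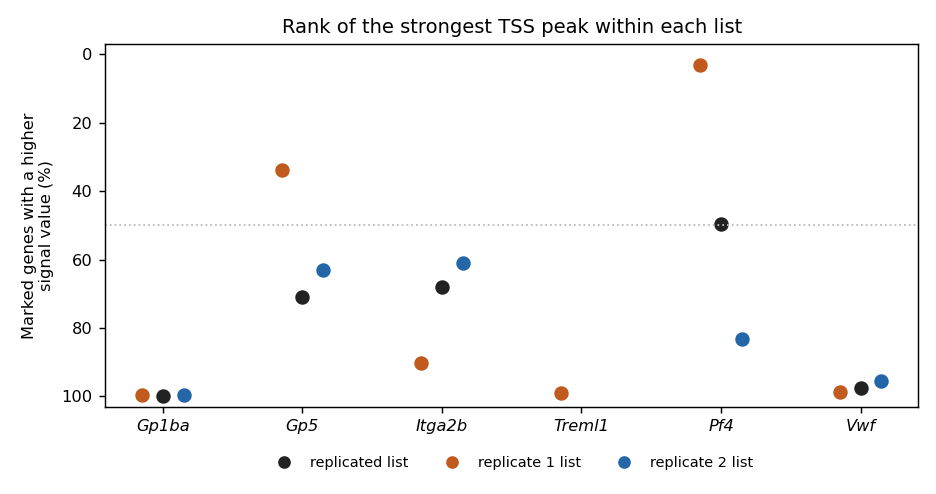
Percentage of marked protein-coding genes whose strongest TSS peak had a higher signal value than that of the named gene (vertical axis, 0 at the top is the strongest), within the replicated, replicate 1 and replicate 2 lists. A gene without a point in a colour was not marked in that list. Gp1ba and Vwf lie near the bottom in all 3 lists, while the points of Pf4 spread from 3.13% in replicate 1 to 83.2% in replicate 2.

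Over the 5 marked genes the median signal value of the strongest TSS peak was 11.2, against 13.8 over all marked protein-coding genes. By signal value the highest of the 5, Pf4, was close to that overall median, and the other 4 lay below it. Ranked by −log10 p, Gp5 stood highest of the 5, with 53.8% of marked genes above it. To measure breadth, peaks no more than 1000 bp apart were joined into domains. The widest TSS domain was 2955 bp at Gp5, 2797 bp at Pf4, 1254 bp at Gp1ba, 1064 bp at Vwf and 910 bp at Itga2b, with a median of 1254 bp against 2258 bp over all marked genes. Those of Vwf and Itga2b lay at internal starts, and the peak at the coding start of Itga2b was 415 bp wide. Gp5 and Pf4 were thus broader than the typical marked gene, with 27.0% and 30.8% of marked genes wider, and the other 3 were narrower, with 87.9% to 93.6% wider. The domain of Gp5 was 3788 bp in replicate 1 and 2870 bp in replicate 2. That of Pf4 was 3978 bp in replicate 1 and 2493 bp in replicate 2. The domain of Gp1ba was 2181 bp in replicate 1 and 304 bp in replicate 2, and that of Vwf was 456 bp in replicate 1, at another start, and 866 bp in replicate 2, so the widths of both differed widely between the replicates.

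None of the 5 marked genes shared its TSS peak with a start of another gene of any type, while 40.2% of all marked protein-coding genes did. No other annotated start lay within 1000 bp of these peaks. The count of 0 of 5 is given as a description.

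The promoters of the 10 genes are poor in CpG, which the choice of genes did not use. The ratio of observed to expected CpG within 500 bases on each side of the 5'-most start ranged from 0.0426 at Gp6 to 0.438 at Gp1bb. By the cut-offs set here 8 of the 10 were low, below a ratio of 0.4, the other 2 (Pf4 at 0.403 and Gp1bb) were intermediate, and none was high. Across all protein-coding genes 16.6% of the low class, 53% of the intermediate class and 79.8% of the high class were marked. Of the 8 low genes 4 were marked (Gp1ba, Gp5, Itga2b and Vwf), and of the 2 intermediate genes Pf4 was. Within the 10 the ratio did not set the marked genes apart, since Gp1bb had the highest ratio and no peak, and Gp1ba had the second lowest and was marked. Of the 4 marked low genes, Gp5 and Gp1ba carried their strongest TSS peak at the 5'-most start, around which the ratio was taken, and Itga2b and Vwf at internal starts.

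**Figure D4:**
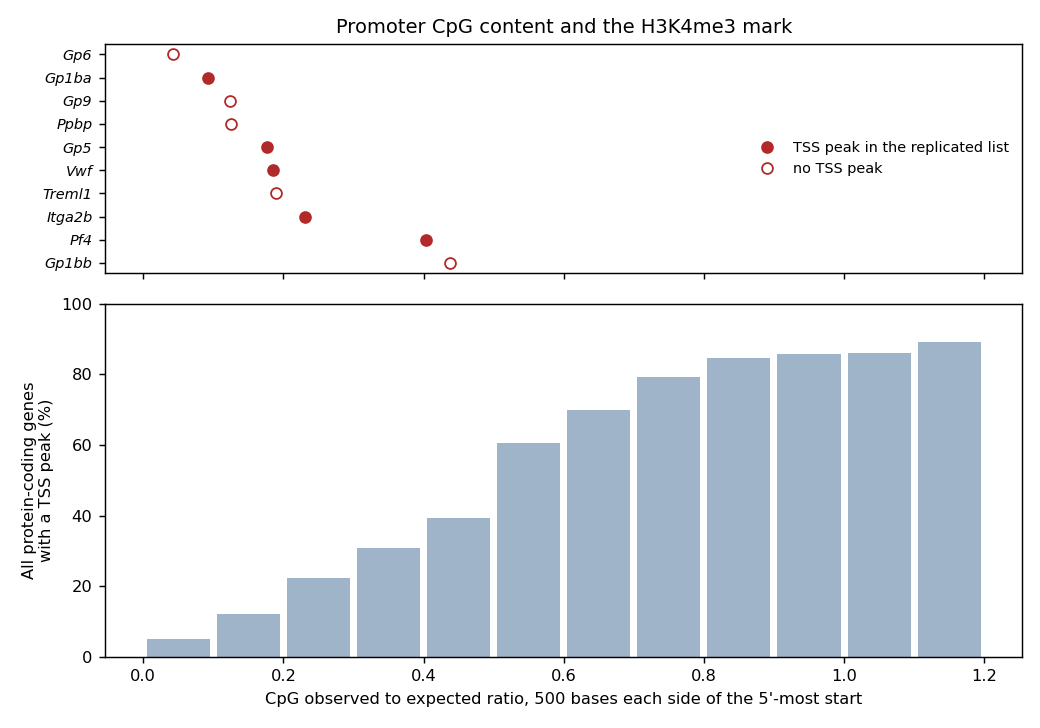
Upper panel, the ratio of observed to expected CpG within 500 bases on each side of the 5'-most start of each of the 10 genes, filled for genes marked in the replicated list. Lower panel, the percentage of all protein-coding genes with a TSS peak in bins of the same ratio. All 10 genes lie at ratios of 0.438 or less, where the bars are lowest, and filled and open points are mixed.

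Promoter sequences of 9 of the 10 genes were matched in the RefSeq table for GRCm38.p6, and the 250 bases before the start were searched on both strands for 4 motifs. GATAA, the core of sites of the GATA factors, was found in 4 of the 9 (Gp1ba, Gp9, Gp5 and Gp6) and in 22.6% of 32851 promoters of the same length. GGAAG, a core of ETS factor sites, was found in 8 of the 9, all but Gp6, and in 64.1% of promoters. TGTGGT, the core of RUNX sites, was found in Gp9 alone (14.0% of promoters), and TATAAA, the TATA box, in Ppbp alone (12.4%). No motif overlapped another in the sequences printed. Counting back from the start, Gp5 held GATAA at −93 and −77 and GGAAG at −55 and −48, all on the opposite strand. Itga2b held GGAAG at −124, −42, −36 and −25, Pf4 held it at −9, and Ppbp held it at −56 and −50 with TATAAA at −30 and −8. The Itga2b internal window held GGAAG at 2 places and TGTGGT at 1. Over windows of the same length around all replicated summits, GGAAG was in 52.8% and TGTGGT in 11.7%. GATAA occurred in marked and unmarked genes alike, 2 of each, and a match is only the presence of these letters.

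The other genes of the lineage were listed in 5 groups by textbook role, 57 genes in all, and 38 of them (66.7%) were marked, against the 50.3% of all protein-coding genes. The share ran from 6 of 16 to 10 of 10. All 10 megakaryocyte transcription factors were marked, the strongest being Gata1 with a signal value of 20.6 and Tal1 with 20.2. Both factors also serve the red cell lineage. Of 14 cytoskeletal and signalling genes 13 were marked, led by Bin2 with a signal value of 15.9 and Rasgrp2, the exchange factor that switches on Rap1 in platelets, with 15.6. Alox12, the platelet 12-lipoxygenase, was the unmarked one.

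Of 6 thrombopoietin signalling genes 4 were marked, led by Stat5b (21.8) and Sh2b3 (19.3, signal values). Thpo, which encodes the hormone itself, was not marked. Of 16 other surface receptors 6 were marked, led by the ADP receptor gene P2ry1 with a signal value of 24.1 and the tetraspanin gene Cd9 with 11.3. Both had a TSS peak that also lay at a start of another gene, and such a peak cannot be assigned to either gene alone. The other marked receptor genes had signal values of 3.72 to 9.71. With peaks of a −log10 q of at least 5, the count of marked receptors was 4 of 16. Itgb3, the beta-3 partner of integrin alpha-IIb, was among the 10 unmarked ones, as were the collagen receptor gene Itga2, the ADP receptor gene P2ry12 and the thrombin receptor gene F2rl2. Of 11 genes listed for granule proteins and granule formation 5 were marked, led by Vps33b (16.4) and Nbeal2 (13.5, signal values), both needed to form alpha granules. Thbs1, F13a1, F5 and Mmrn1 were among the 6 unmarked ones.

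**Figure D5:**
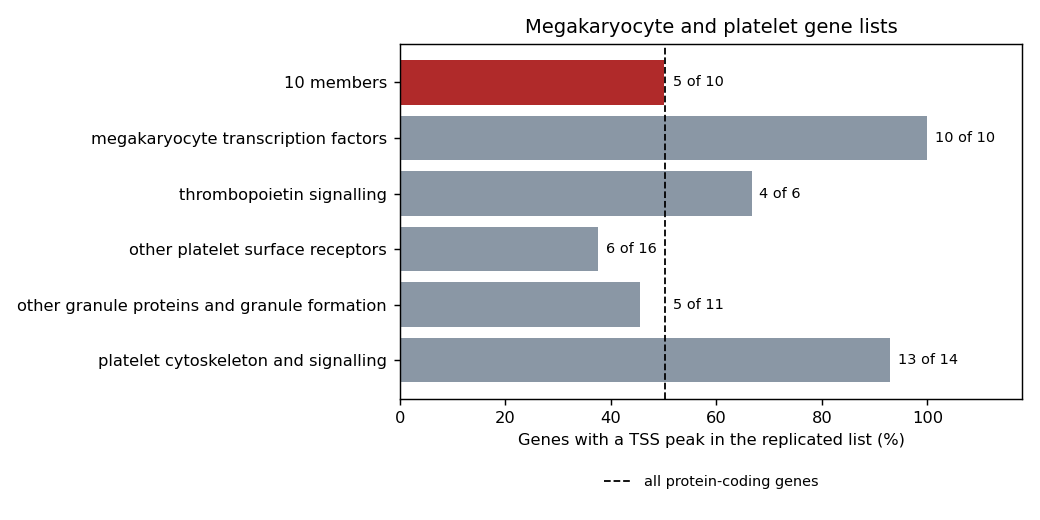
Percentage of genes with a TSS peak in the replicated list (horizontal axis) for the 10 genes described here and for 5 lists of other megakaryocyte and platelet genes, with counts beside the bars. The dashed line is the 50.3% of all protein-coding genes. The bars run from 6 of 16 for other surface receptors to 10 of 10 for transcription factors.

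Of the 57 related genes, only Itgb3, Itga2, F5 and Mmrn1 had a peak inside the gene and none at a start. Over all protein-coding genes 5.42% had this pattern. That of Itgb3, chr11:104661459-104662071, had a signal value of 10.9 and lay in an intron 53647 bp downstream of the 5'-most start, while those of the other 3 had signal values of 3.64 to 4.32. So of the integrin pair alpha-IIb and beta-3, Itga2b had a weak peak at its coding start and stronger internal ones, and Itgb3 had an internal peak alone. By promoter class the related genes were marked in 14 of 25 low, 7 of 13 intermediate and 17 of 19 high cases. Over all protein-coding genes the shares of these classes were 16.6%, 53% and 79.8%. Of the 38 marked related genes 9 shared a TSS peak with a start of another gene, against none of the 5 described here. Over all marked protein-coding genes the share was 40.2%. Among the 9 were Sh2b3, P2ry1, Cd9 and Nbeal2, whose signal values are given above.

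The 5 unmarked genes lay at very different distances from the nearest replicated peak, which were 1670 bp for Gp9, 1840 bp for Ppbp, 3517 bp for Gp1bb, 17943 bp for Treml1 and 46954 bp for Gp6. Over all 10901 unmarked protein-coding genes the median distance was 65244 bp, and all 5 lay nearer than that. A peak within 2500 bp, as at Gp9 and Ppbp, was held by 3.22% of unmarked genes, and one within 10000 bp, as at Gp1bb too, by 16.1%. The bases around the 5'-most starts were nearly all unique in the genome, with no repeated 32-base word at 9 of the genes and 0.928% of words at Vwf.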

How the data were processed

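The data were peak lists of H3K4me3 ChIP-seq from 2 replicate libraries of MEL cells, 1 group. Per the readme that the authors deposited, peaks were called on mm10 for each replicate against a control and for the reads of both combined. The replicated list was then drawn from those 3 lists. Aligner, peak caller and the rule for a replicated peak were not given in the sources used here. A list on mm9 was not used. For each peak the authors deposited a signal value, which is a score of their own whose formula is not stated there, and a −log10 p and −log10 q. Of the replicated peaks 1.77% had a q above 0.05, and all were kept.

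Peaks were joined to GENCODE M21 genes in Python 3.11.15 with pandas 2.3.3 and numpy 2.4.6, and the genome was read with pysam 0.24.0. The joining of peaks to starts and the merging of peaks were tested on simulated data. A TSS peak overlapped by at least 1 bp the window of 1000 bp on each side of any annotated start, and body peaks overlapped the gene. Promoters were classed over 500 bases on each side of the 5'-most start as high CpG (ratio of at least 0.6 and GC share of at least 0.5), low (ratio below 0.4) or intermediate. Distances to neighbouring genes run between 5'-most starts. No test against all protein-coding genes was made, since the members were chosen with results of these data known. With 1 group no conditions could be compared either. The text names all 10 genes and their nearest marked protein-coding neighbours. From each related list it names every unmarked gene where these are 5 or fewer, otherwise the first 4 in list order, and the 2 marked genes with the highest signal value. Some genes that this rule would name are not reported here. Other genes named were chosen after their values were seen. The members and lists were chosen with earlier results of these data known.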

Additional observations from a re-analysis of the deposited data

How the results depend on the processing

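The count of 5 marked genes among the 10 was 4 with only the 5'-most start or with peaks of a −log10 q of at least 5, both without Vwf, and 7 with windows of 2500 bp, which added Gp9 and Ppbp. It was 5 with windows of 500 bp, with the pooled list and with each peak given to its nearest start. Without replicate 1 it was 5, and without replicate 2 it was 6. Both of the following were chosen after seeing the data: with protein-coding transcript starts only it was 4, again without Vwf, and with RefSeq starts it was 5, with Gp9 in place of Vwf. The related genes gave 34 to 39 of 57 under the same settings, and gene body peaks 4 to 6 of 10. With domains merged across 2500 bp, the domain of Pf4 widened from 2797 to 3983 bp. For Itga2b the widest domain was then 3214 bp in place of 910 bp, but it was a different domain. It ran from 102466849 to 102470062 and took in the peak at the coding start, while the domain of 910 bp lay farther downstream. Ranked by −log10 p in place of the signal value, the share of marked genes above Pf4 went from 49.6% to 83.9%, above Itga2b from 67.9% to 81.0%, above Gp5 from 71.0% to 53.8%, above Gp1ba from 99.7% to 98.0% and above Vwf from 97.6% to 98.8%. No paired analysis was possible because there is 1 group. Depth is unknown, so a missing peak, as at Treml1 in replicate 2, cannot be told from a peak below the calling limit.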

Other observations

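Pf4 and Ppbp belong to a cluster of chemokine genes on chromosome 5. Of the 8 protein-coding genes that lie within 200000 bp of Pf4 (Rassf6, Cxcl5, Ppbp, Pf4, Cxcl3, Cxcl15, Cxcl1 and Cxcl2), Pf4 was the only one marked in the replicated list and in the replicate 2 list. Replicate 1 also had a peak at the start of Cxcl5, which encodes a neutrophil chemokine. The nearest marked protein-coding genes on either side of Pf4 were Gm9958, 405231 bp away with a signal value of 9.70, and Btc, 630559 bp away with a signal value of 14.5.

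The replicate lists differed at a few other platelet genes. Cd36, a scavenger receptor gene, was marked in the replicated and replicate 2 lists and not in replicate 1. Pdgfb, which encodes a platelet-derived growth factor chain, was marked in the pooled and replicate 2 lists and in neither the replicated nor the replicate 1 list.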
